A study of Mus musculus with 12 samples.

Results

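The 10 genes of the Polycomb repressive complexes examined here were chosen by symbol from the gene tables and followed across 6 groups of mouse B cells separated by how often they had divided after lipopolysaccharide (LPS). They are 10 of the 21671 genes with a symbol in the exon count table: Ezh1, Ezh2, Eed, Suz12 and Jarid2 of Polycomb repressive complex 2 (PRC2), and Bmi1, Ring1, Rnf2, Cbx7 and Cbx8 of Polycomb repressive complex 1 (PRC1). All 10 passed the filter on low counts, as did 12026 genes in all, so no member was left out of a test.

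Polycomb complexes keep developmental and cell-fate genes silent. PRC2 methylates histone H3 at lysine 27 through either of its catalytic subunits, Ezh2 or Ezh1, which work only together with Eed and Suz12, while Jarid2 is an accessory subunit that helps bring the complex to chromatin. PRC1 places ubiquitin on histone H2A through the paired RING-finger ligases Ring1 and Rnf2, with Bmi1 as a stimulating partner, and its chromodomain subunits, among them Cbx7 and Cbx8, bind the mark that PRC2 lays down. In B cells Ezh2 is known for its high level in dividing germinal centre cells, and Ezh1 for its presence in resting cells.

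The donors' naive splenic B cells, B220+ and CD43-, came from C57/BL6J mice in the design text, whereas the strain label of every sample reads B6.SJL-Ptprca Pepcb/BoyJ, and the labels give female sex and an age of 8 weeks. The cells were stained with a dye that is diluted at each division (CFSE or CTV), placed in uMT mice, which lack mature B cells of their own, and left overnight before LPS. On day 3 after LPS, spleen cells were sorted into Div0, Div1, Div3 and Div5, named for the number of divisions, and into 2 groups with at least 8 divisions, Div8neg without and Div8pos with CD138, the surface marker of plasma cells. Each group has 2 libraries, 1 from host 196 and 1 from host 197, made from 40000 cells with synthetic ERCC RNAs added before extraction. Every group therefore shares the LPS, the hosts and the day, so Div0 is not an untreated control but the undivided cells of the same animals. With 2 hosts per group, each p-value reaches no further than these animals and rests on a spread estimated with the help of other genes. A two-sided exact permutation test of 2 against 2 values, with 2 of its 6 arrangements at the extreme, could not reach 0.05.

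Values are given on 2 scales. CPM, the usual depth-scaled count, says what share of a library's gene counts a gene held, after TMM scaling. Summed CPM of a list of genes was scaled by library depth alone, without TMM. The deposited mRNAs per cell are scaled by the ERCC RNAs and by gene length, so that they follow the whole RNA content of a cell and allow levels of different genes to be compared. Libraries held 11551585 to 14975133 gene counts, and member counts ran from 96 for Cbx8 to 4583 for Suz12. The total over all genes rose from 27360 and 33510 mRNAs per cell in Div0 to 173800 and 151800 in Div8pos, so most genes were higher per cell in dividing cells whatever their share did. In bulk samples of this kind, fewer cells of a type and less RNA per cell cannot be told apart. The summed CPM of 6 B cell markers lay between 8220 and 9120 in Div0 to Div5, 6000 and 6120 in Div8neg and 904 and 917 in Div8pos. The 6 plasma cell markers summed to 286 to 452 in Div0 to Div5, 652 to 786 in Div8neg and 4810 to 4970 in Div8pos. They include Sdc1, the gene of CD138, by which Div8pos was sorted. Part of that rise can follow from the sort itself, so it is no independent check. Of other cell types, 6 T cell markers summed to 42.9 to 45.2 CPM in Div0 and 1.97 to 2.2 in Div8pos, with Cd3g at 0 there. The 7 measured myeloid markers summed to 43.3 to 46.7 in Div0, 95.7 to 119 in Div5, 148 to 186 in Div8neg and 15.3 to 17 in Div8pos. The 4 measured neutrophil markers differed between the 2 libraries of a group, at 6.44 and 28.9 in Div0 and 4.94 and 47.7 in Div1. In Div8pos they summed to 1.74 and 3.9. The 3 natural killer cell markers summed to at most 0.866 in any library, and the 3 measured erythroid markers to at most 17. The 4 stromal and endothelial markers summed to 277 to 282 in Div0 and 18.1 to 20.4 in Div8pos, with Col1a1 at 0 in Div8pos. Only 2 of these 4 genes and 1 of the 6 T cell markers passed the filter on low counts. Those sums thus rest on few genes and do not measure a share of other cells. The part of these markers in the results was not tested.

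The promoters of 4 members are printed because these genes showed the widest changes of share in the 2 complexes: Ezh2 and Suz12 upward, Ezh1 and Cbx7 downward. Each run covers the 250 bases before the RefSeq start and the first 30 after it (GRCm38.p6), read 5′ to 3′ on the gene's strand: Ezh2 at chr6:47595001-47595280 (minus strand), Suz12 at chr11:79992856-79993135 (plus strand), Ezh1 at chr11:101226434-101226713 (minus strand) and Cbx7 at chr15:79932617-79932896 (minus strand). Capitals mark a match to one of 3 forms of the E2F motif, the site class through which cell cycle genes are commonly switched on.

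Ezh2: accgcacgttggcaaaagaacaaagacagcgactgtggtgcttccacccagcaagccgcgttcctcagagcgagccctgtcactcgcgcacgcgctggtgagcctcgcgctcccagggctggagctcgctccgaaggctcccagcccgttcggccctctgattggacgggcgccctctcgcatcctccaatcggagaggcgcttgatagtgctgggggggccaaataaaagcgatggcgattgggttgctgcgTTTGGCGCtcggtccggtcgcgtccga
Suz12: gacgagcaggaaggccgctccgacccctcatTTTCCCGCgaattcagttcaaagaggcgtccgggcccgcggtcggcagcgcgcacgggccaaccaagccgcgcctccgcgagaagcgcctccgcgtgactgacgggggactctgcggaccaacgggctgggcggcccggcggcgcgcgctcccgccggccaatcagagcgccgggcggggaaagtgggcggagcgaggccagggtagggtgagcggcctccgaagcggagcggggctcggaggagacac
Ezh1: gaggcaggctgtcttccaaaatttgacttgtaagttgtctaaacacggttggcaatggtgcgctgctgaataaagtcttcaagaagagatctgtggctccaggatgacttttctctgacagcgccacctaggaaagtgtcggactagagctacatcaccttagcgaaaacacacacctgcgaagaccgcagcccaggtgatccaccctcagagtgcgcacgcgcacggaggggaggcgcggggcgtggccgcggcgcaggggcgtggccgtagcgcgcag
Cbx7: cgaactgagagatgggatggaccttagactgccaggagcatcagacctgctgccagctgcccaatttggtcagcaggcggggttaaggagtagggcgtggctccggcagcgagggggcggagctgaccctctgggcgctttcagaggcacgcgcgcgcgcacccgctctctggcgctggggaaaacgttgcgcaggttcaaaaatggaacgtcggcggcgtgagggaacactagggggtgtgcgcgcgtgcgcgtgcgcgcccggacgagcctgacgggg

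The search covered TTTGGCGC, TTTCCCGC and TTTCGCGC on both strands of windows of 300 bases, reaching 50 bases past the start. Of 32851 promoters of that length, 606 (1.84%) held at least 1 of the 3 forms. Their median GC content was 52.7%, whereas the members' windows ran from 54.7% (Eed) to 74% (Ring1), with Ezh2 at 64.3% and Suz12 at 71%. The 1.84% is therefore not a rate for windows of like GC content, and enrichment was not tested. Among the 11 promoters of the 10 members, of which Jarid2 has 2, Ezh2 held TTTGGCGC from 3 bases after its start and Suz12 held TTTCCCGC from position -219 relative to it. The other members' windows held none of the 3 forms. A second motif, CHR (TTTGAA), was searched in the same windows, and 5878 promoters (17.9%) held it. Eed held 2 matches, Suz12 and Cbx7 held 1 each, and Ezh2 and the other members held none. A match describes the sequence only, and nothing in these data measured binding there.

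Shares of the library moved in opposite directions within PRC2, while no PRC1 member was higher in either group past 8 divisions than in Div0. Ezh2, Suz12 and Eed rose with division, whereas Ezh1, Jarid2, Ring1 and Cbx7 fell, and Bmi1 changed least. By edgeR's quasi-likelihood test with Benjamini-Hochberg adjustment over all 12026 genes, all 10 members differed among the 6 groups at an adjusted p under 0.05, where 90.9% of all genes did. From Div0 to Div1, 1 member was higher and 2 lower, against a background of 9.35% of genes called. From Div1 to Div3 only Cbx7 was called, lower, with 3.42% called in the background. From Div3 to Div5, 2 members were higher and 3 lower (26.6% of genes called), and from Div5 to Div8neg 4 were higher and 4 lower (53.4%). Between Div8neg and Div8pos, 5 members were higher and 4 lower in Div8pos (72.0%). Against Div0, Div8neg had 3 members higher and 6 lower (71.0%), and Div8pos had 3 higher and 7 lower (82.4%). The last 2 comparisons share the Div0 libraries. The members' median log2 change was -0.40 in Div8neg and -0.53 in Div8pos against Div0, where the medians over all genes were -0.01 and -0.04.

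**Figure D1:**
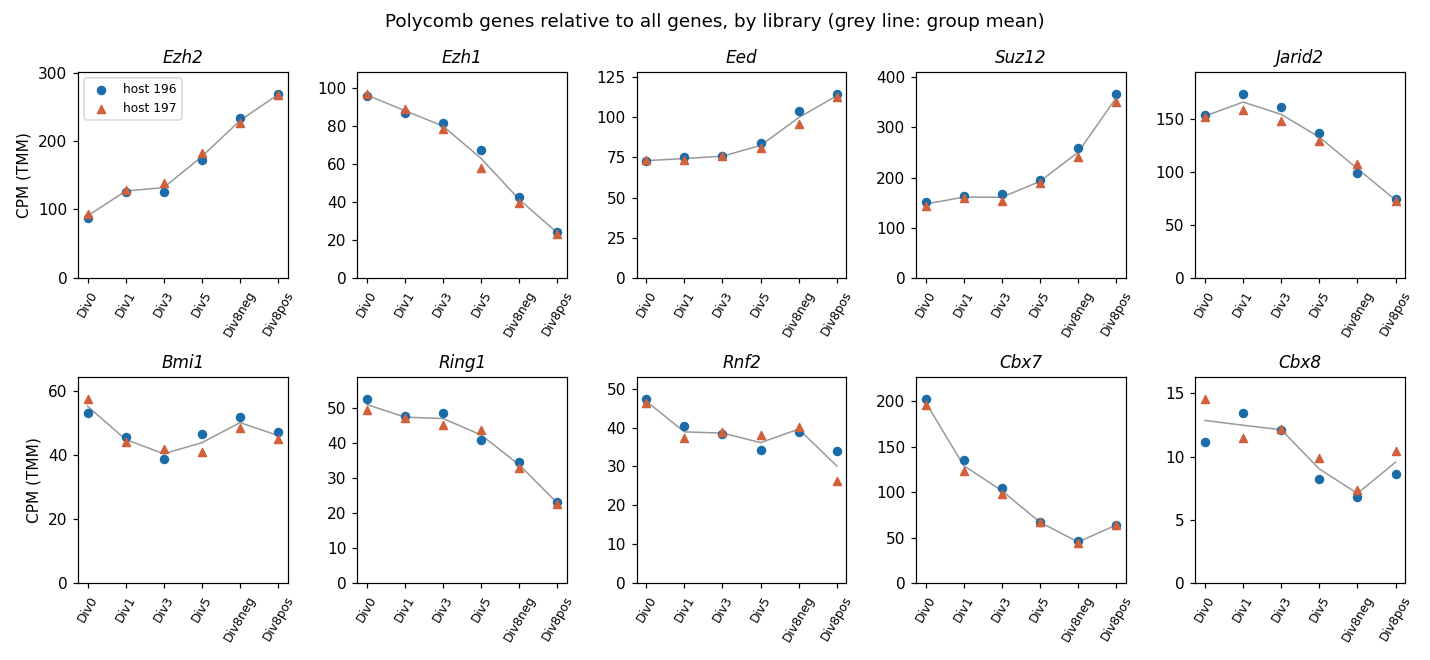
CPM of each member in the 12 libraries, with blue circles for host 196, orange triangles for host 197 and a grey line through group means; each panel has its own linear axis from 0. Ezh2 climbs from 88.1 and 93.0 in Div0 to 268.9 and 267.4 in Div8pos while Ezh1 goes from 95.8 and 96.9 to 24.3 and 23.1.

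Ezh2, the catalytic subunit of dividing cells, was at 88.1 and 93.0 CPM in Div0 (hosts 196 and 197), 125.2 and 128.6 in Div1, 124.9 and 139.0 in Div3, 172.8 and 182.1 in Div5, 233.5 and 226.5 in Div8neg and 268.9 and 267.4 in Div8pos. Only Div1 and Div3 overlapped; every other step was upward in both hosts. Ezh2 was 2.54-fold higher in Div8neg than in Div0 (log2 change 1.35 ± 0.062 SE, edgeR adjusted p = 4.33e-11) and a further 1.17-fold higher in Div8pos than in Div8neg (adjusted p = 0.00293). Step by step, the difference was 1.40-fold at Div1 over Div0 (adjusted p = 0.000124), 1.34-fold at Div5 over Div3 (adjusted p = 0.000188) and 1.30-fold at Div8neg over Div5 (adjusted p = 7.32e-05).

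Ezh1, the alternative catalytic subunit, took the opposite course. Its values were 95.8 and 96.9 CPM in Div0, 87.0 and 89.1 in Div1, 81.4 and 78.5 in Div3, 67.6 and 58.1 in Div5, 42.8 and 39.7 in Div8neg and 24.3 and 23.1 in Div8pos, with no overlap between any neighbouring groups. The first 2 steps did not pass the test (edgeR adjusted p = 0.285 and 0.384). Ezh1 was then 1.27-fold lower in Div5 than in Div3 (adjusted p = 0.00271), 1.52-fold lower in Div8neg than in Div5 (adjusted p = 9.02e-06) and 1.74-fold lower in Div8pos than in Div8neg (adjusted p = 5.58e-07). The Div5 call was lost without the Div5 library of host 197 (adjusted p = 0.0578). From Div0 to Div8pos the fall was 4.06-fold (log2 change -2.02 ± 0.081 SE, adjusted p = 1.07e-12).

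Suz12 and Eed, the scaffold and the H3K27me3-reading subunit without which neither catalytic subunit works, also rose, with no call before Div5 for Suz12 or before Div8neg for Eed at successive steps. Suz12 was at 151.2 and 143.2 CPM in Div0, 162.6 and 159.3 in Div1, 167.5 and 154.0 in Div3, 195.2 and 189.4 in Div5, 259.3 and 241.3 in Div8neg and 366.6 and 351.2 in Div8pos. Div1 and Div3 overlapped and each later group lay above the one before. Suz12 was 1.20-fold higher in Div5 than in Div3 (edgeR adjusted p = 0.00522), a call lost without the Div3 library of host 197 (adjusted p = 0.0526). It was 1.30-fold higher in Div8neg than in Div5 (adjusted p = 6.33e-05) and 1.43-fold higher in Div8pos than in Div8neg (adjusted p = 7.17e-07), the last being the widest upward difference of any member between those groups. Eed stood between 72.8 and 75.8 CPM in the 6 libraries of Div0, Div1 and Div3, at 83.9 and 81.0 in Div5, 103.7 and 95.8 in Div8neg and 114.5 and 112.4 in Div8pos. Its first call came at Div8neg against Div5, 1.21-fold higher (adjusted p = 0.000904). Eed was 1.14-fold higher in Div8pos than in Div8neg (adjusted p = 0.00847), which did not hold without the Div8neg library of host 197 (adjusted p = 0.112).

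Jarid2, which helps recruit PRC2, parted from the core subunits. It was at 153.5 and 152.3 CPM in Div0, 173.8 and 158.4 in Div1, 161.2 and 147.8 in Div3, 136.6 and 129.4 in Div5, 98.8 and 107.7 in Div8neg and 74.1 and 73.1 in Div8pos. Div0, Div1 and Div3 overlapped in part, and the later 3 groups were each lower than the last. Jarid2 was 1.16-fold lower in Div5 than in Div3 (edgeR adjusted p = 0.0235), 1.29-fold lower in Div8neg than in Div5 (adjusted p = 0.000271) and 1.40-fold lower in Div8pos than in Div8neg (adjusted p = 1.21e-05). The first of these calls was lost without the Div3 library of host 196 (adjusted p = 0.207) or the Div5 library of host 197 (adjusted p = 0.188).

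Of the PRC1 ligases, Ring1 fell and Rnf2 changed less. Ring1 was at 52.6 and 49.5 CPM in Div0, 47.7 and 47.2 in Div1, 48.8 and 45.3 in Div3, 41.0 and 43.7 in Div5, 34.6 and 33.0 in Div8neg and 23.1 and 22.6 in Div8pos. None of the first 3 steps passed the test, and Ring1 was then 1.25-fold lower in Div8neg than in Div5 (edgeR adjusted p = 0.00163) and 1.48-fold lower in Div8pos than in Div8neg (adjusted p = 1.14e-05). Rnf2 was at 47.3 and 46.3 CPM in Div0, 40.5 and 37.3 in Div1, 38.4 and 38.8 in Div3, 34.2 and 38.1 in Div5, 38.9 and 40.2 in Div8neg and 33.9 and 26.3 in Div8pos. Div0 was above every other group, and the 2 hosts were farthest apart in Div8pos. Rnf2 was 1.31-fold lower in Div8pos than in Div8neg (adjusted p = 0.00248), but not without the Div8pos library of host 197 (adjusted p = 0.0592). Its 1.18-fold lower value in Div8neg than in Div0 (adjusted p = 0.0307) missed the threshold when any 1 of those 4 libraries was left out (adjusted p between 0.0599 and 0.13). At the first division Rnf2 was at a log2 change of -0.27 (adjusted p = 0.0907), which passed with the host as a block (adjusted p = 0.0437) and without either Div8pos library (adjusted p = 0.0378 and 0.0374).

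Bmi1, the ligases' stimulating partner, had the narrowest range of group means of any member, 1.37-fold. It was at 53.2 and 57.6 CPM in Div0, 45.8 and 44.1 in Div1, 39.0 and 42.02 in Div3, 46.7 and 41.2 in Div5, 51.9 and 48.6 in Div8neg and 47.2 and 45.2 in Div8pos. Div0 was highest, Div3 lay below Div1, and Div5 overlapped both. It was called lower in Div1 than in Div0 (log2 change -0.30, edgeR adjusted p = 0.022), higher in Div8neg than in Div5 (0.19, adjusted p = 0.0476) and lower in Div8pos than in Div0 (-0.26, adjusted p = 0.00609). The first call was lost without the Div0 library of host 197 (adjusted p = 0.182) or either Div1 library (0.0555 and 0.165). The third was lost without the Div0 or the Div8pos library of host 197 (adjusted p = 0.0582 and 0.0598). The Div8neg call was lost in 8 of the 12 ways of leaving out 1 library: either library of Div0, Div1 or Div8neg, host 197 of Div5, or host 196 of Div8pos (adjusted p between 0.0506 and 0.364). It was also lost with RLE factors (adjusted p = 0.0648), without the filter on low counts (0.058) and with DESeq2 (0.181).

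Cbx7, one of the chromodomain readers, fell at each division step and then turned. It was at 202.3 and 195.5 CPM in Div0, 135.6 and 122.9 in Div1, 105.1 and 98.3 in Div3, 66.7 and 67.2 in Div5, 46.7 and 43.8 in Div8neg and 64.2 and 63.6 in Div8pos. No neighbouring groups overlapped. Cbx7 was 1.54-fold lower in Div1 than in Div0 (edgeR adjusted p = 8.64e-06), 1.27-fold lower in Div3 than in Div1 (adjusted p = 0.00532), 1.52-fold lower in Div5 than in Div3 (adjusted p = 2.24e-05) and 1.48-fold lower in Div8neg than in Div5 (adjusted p = 8.04e-06). Across Div0 to Div8neg the difference was 4.39-fold (adjusted p = 1.56e-12). In Div8pos it was 1.41-fold higher than in Div8neg (adjusted p = 1.09e-05) in both hosts. The Div3 call was lost without the Div1 library of host 196 or the Div3 library of host 197 (adjusted p = 0.0803 and 0.075).

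Cbx8, a second reader, was the scarcest member, with 96 to 184 counts per library. It was at 11.2 and 14.5 CPM in Div0, 13.5 and 11.5 in Div1, 12.1 and 12.2 in Div3, 8.19 and 9.86 in Div5, 6.84 and 7.34 in Div8neg and 8.64 and 10.5 in Div8pos. Only Div8neg stood below all the others. Cbx8 was 1.81-fold lower in Div8neg than in Div0 (edgeR adjusted p = 0.000248) and 1.35-fold higher in Div8pos than in Div8neg (adjusted p = 0.0364). The latter was lost without either Div8neg library (adjusted p = 0.138 and 0.0664) or the Div8pos library of host 197 (0.227). The step from Div3 to Div5, at a log2 change of -0.43 (adjusted p = 0.0578), passed with the host as a block (adjusted p = 0.0359) and without either Div0 library (0.0413 and 0.0422). Its 1.34-fold lower value in Div8pos than in Div0 (adjusted p = 0.0234) was lost without the Div0 library of host 197 (adjusted p = 0.257) or the Div8pos library of host 196 (0.22).

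**Figure D2:**
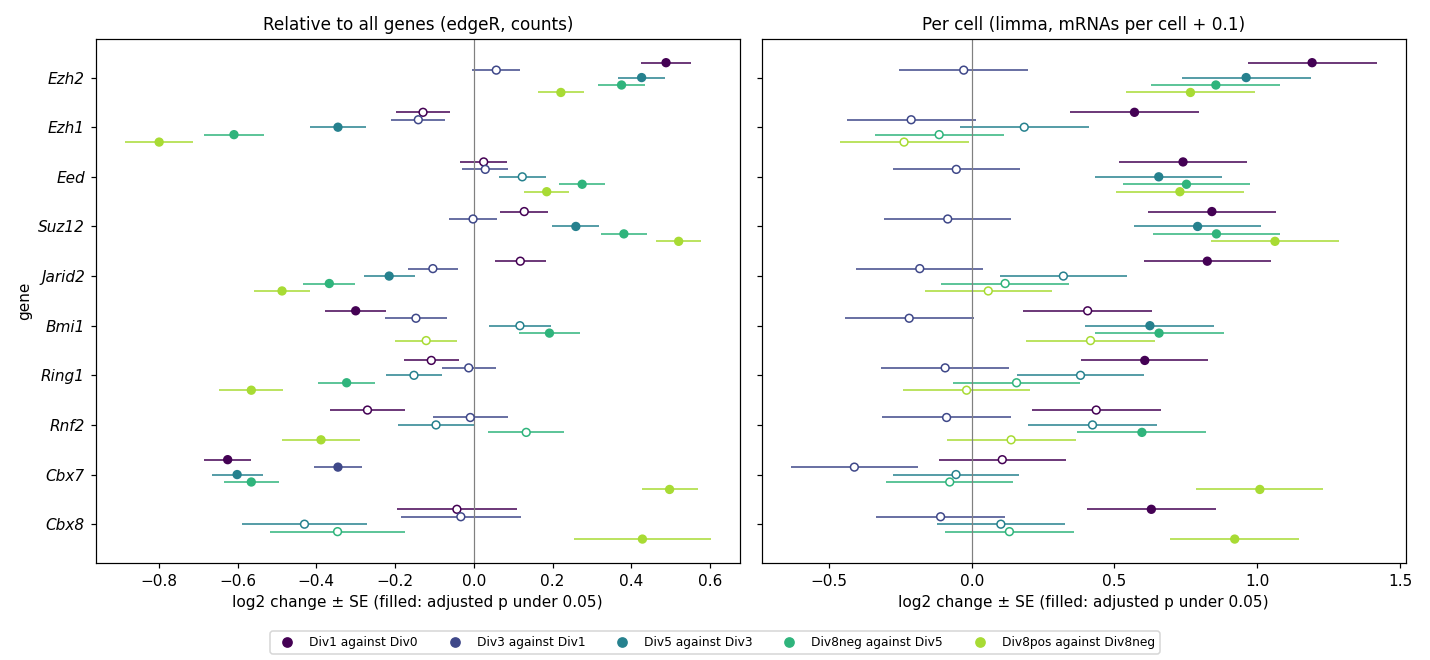
Log2 change of each member at the 5 successive steps, with bars of ± 1 SE, by edgeR on counts (left) and by limma on mRNAs per cell + 0.1 (right); filled points passed an adjusted p under 0.05. Left, the filled points of Ezh2 and Suz12 lie right of 0 and those of Ezh1 left of it; right, no filled point lies below 0.

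Per cell the picture was one of gain. By limma on log2(mRNAs per cell + 0.1), a scale that understates changes of low genes, 9 of 10 members differed among the 6 groups (97.1% of all genes did), Ezh1 being the exception (adjusted p = 0.107; 0.00559 without the Div1 library of host 196). From Div0 to Div1, 7 members were higher and none lower (77.1% of genes called). That count dropped to 1 without the Div0 library of host 196 and to 2 without the Div1 library of host 197. From Div1 to Div3 no member was called, with 0 members at an unadjusted p under 0.05 in limma and 0 called by edgeR with library sizes set from the spike-ins, where limma called 0.516% of all genes. From Div3 to Div5, 4 members were higher (43.2%), which became 0 without the Div3 library of host 196 and 1 without the Div5 library of host 196. From Div5 to Div8neg 5 were higher (45.8%), which became 1 without the Div5 library of host 197, 3 without the Div8neg library of host 196 and 2 without that of host 197. Between the 2 groups past 8 divisions, 5 were higher in Div8pos (68.4%). Against Div0, 8 members were higher in Div8neg (90.0%) and 9 in Div8pos (89.1%), and those 2 comparisons share the Div0 libraries. Member medians lay close to or below those of all genes, at log2 changes of 1.22 against 1.41 in Div8neg and 1.59 against 1.84 in Div8pos. In this fit the spread came largely from all genes together, and the SE of every member lay between 0.222 and 0.226. A very small per-cell p-value therefore does not measure a member's own spread between the 2 hosts.

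**Figure D3:**
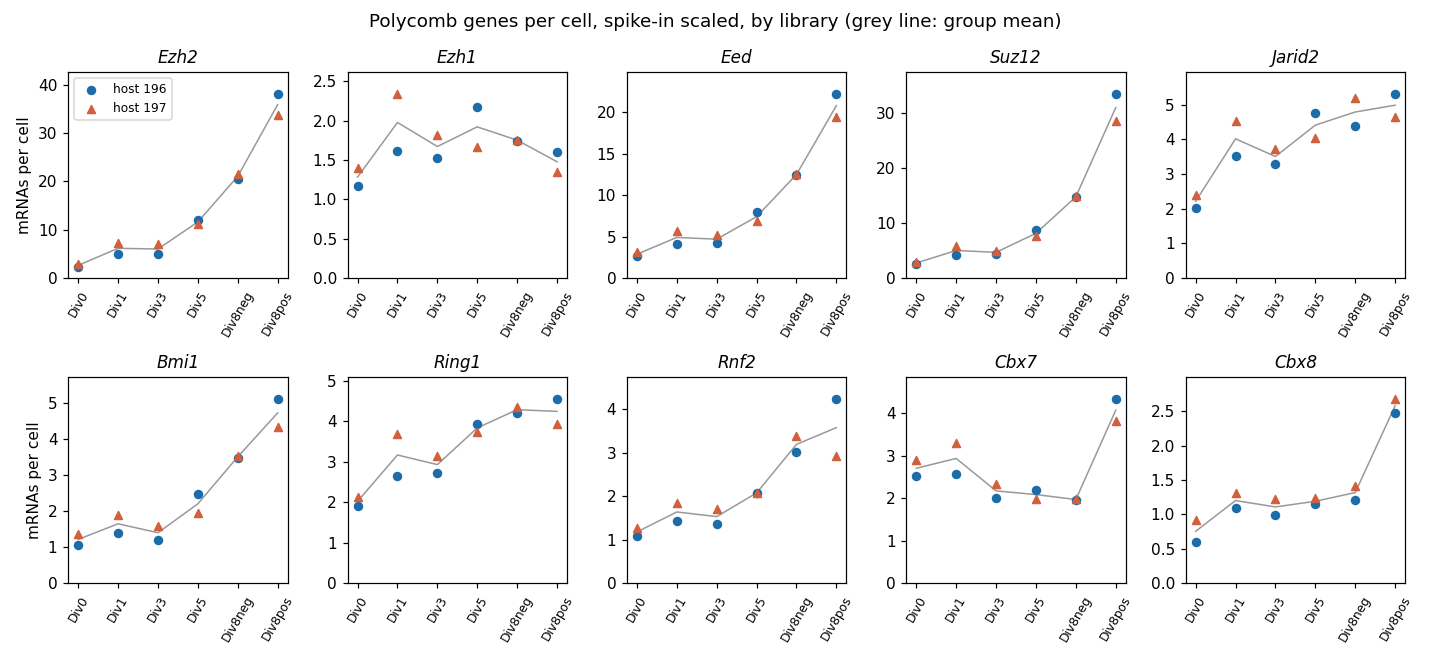
Deposited mRNAs per cell of each member in the 12 libraries, drawn as circles (host 196) and triangles (host 197) with a grey line through group means; axes are linear from 0 and differ between panels. Ezh2 goes from 2.30 and 2.89 in Div0 to 38.1 and 33.7 in Div8pos, while every Ezh1 value lies between 1.16 and 2.34.

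The core of PRC2 gained most. Ezh2 was at 2.30 and 2.89 mRNAs per cell in Div0, 5.00 and 7.26 in Div1, 5.04 and 6.93 in Div3, 11.9 and 11.3 in Div5, 20.5 and 21.6 in Div8neg and 38.1 and 33.7 in Div8pos. Groups overlapped only at Div1 and Div3. The level in Div8pos was 13.4-fold that in Div0 on the limma scale (adjusted p = 2.08e-30). Suz12 rose from 2.55 and 2.88 mRNAs per cell in Div0 to 14.7 and 14.9 in Div8neg and 33.5 and 28.6 in Div8pos, 11.1-fold over Div0 (limma adjusted p = 1.86e-28). Eed rose from 2.61 and 3.12 through 12.5 and 12.5 to 22.2 and 19.4, 7.07-fold (adjusted p = 1.86e-22). Their shares of counts rose as well.

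Ezh1 and Cbx7 gained least. Ezh1 was at 1.16 and 1.40 mRNAs per cell in Div0, 1.61 and 2.34 in Div1, 1.53 and 1.82 in Div3, 2.17 and 1.67 in Div5, 1.75 and 1.76 in Div8neg and 1.60 and 1.35 in Div8pos, so that all groups overlapped their neighbours in the order of means. Its Div8pos level was 1.14-fold that in Div0 (limma log2 change 0.19 ± 0.226 SE, adjusted p = 0.421). At Div1 it was called 1.48-fold higher (adjusted p = 0.02), a call that ended when host 196 of Div0 was left out (adjusted p = 0.187) or when host 197 of Div1 was (0.239). In Div8neg its log2 change over Div0 was 0.43 (adjusted p = 0.0673), below 0.05 without either Div1 library (adjusted p = 0.0243 each) and by edgeR with spike-in library sizes (0.0451). Cbx7 was at 2.51 and 2.89 mRNAs per cell in Div0, 2.57 and 3.30 in Div1, 2.01 and 2.33 in Div3, 2.19 and 1.97 in Div5, 1.95 and 1.99 in Div8neg and 4.33 and 3.81 in Div8pos. The Div8pos libraries lay above all others, and those of Div0 and Div1 lay above those of Div3, Div5 and Div8neg. No step before Div8pos was called. In Div8pos Cbx7 was 2.01-fold higher than in Div8neg (limma adjusted p = 4.61e-05). Its 1.49-fold higher level in Div8pos than in Div0 (adjusted p = 0.013) was lost without host 196 of either group (adjusted p = 0.115 and 0.111), and its log2 change of -0.44 in Div8neg against Div0 (adjusted p = 0.0581) passed without either Div1 library (adjusted p = 0.0185 each) and without the filter on low values (0.0317).

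The remaining members rose moderately. Bmi1 went from 1.06 and 1.37 mRNAs per cell in Div0 to 3.48 and 3.54 in Div8neg and 5.11 and 4.35 in Div8pos, 3.69-fold over Div0 (limma adjusted p = 5.09e-13). Rnf2 went from 1.09 and 1.26 to 3.00 and 3.37 and then 4.23 and 2.92, 2.84-fold over Div0 (adjusted p = 1.73e-09). Ring1 rose from 1.91 and 2.14 to 4.22 and 4.36 in Div8neg and was at 4.55 and 3.94 in Div8pos, with those last 2 groups overlapping. Jarid2 likewise rose from 2.03 and 2.39 in Div0 to 4.38 and 5.19 in Div8neg and stood at 5.30 and 4.65 in Div8pos. Cbx8 went from 0.592 and 0.917 through 1.22 and 1.42 to 2.48 and 2.68, 1.89-fold higher in Div8pos than in Div8neg (adjusted p = 0.000212). Its call in Div8neg against Div0 (1.69-fold, adjusted p = 0.00132) was lost without the Div0 library of host 196 (adjusted p = 0.116).

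The makeup of PRC2's catalytic pool changed with each group. Ezh2 mRNAs outnumbered Ezh1 mRNAs 1.98- and 2.06-fold in Div0, 3.10- and 3.10-fold in Div1, 3.30- and 3.81-fold in Div3, 5.50- and 6.74-fold in Div5, 11.7- and 12.3-fold in Div8neg and 23.8- and 24.9-fold in Div8pos. No neighbouring groups overlapped, in either host. Ezh2 thus supplied 66.4% and 67.4% of the 2 catalytic mRNAs in Div0 and 96.0% and 96.1% in Div8pos. The other core subunits kept nearer to the summed catalytic mRNAs: Eed stood at 0.752 and 0.726 of that sum in Div0 and 0.560 and 0.554 in Div8pos, and Suz12 at 0.736 and 0.669 in Div0 and 0.844 and 0.815 in Div8pos. These ratios describe mRNAs within one library and were given no test.

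**Figure D4:**
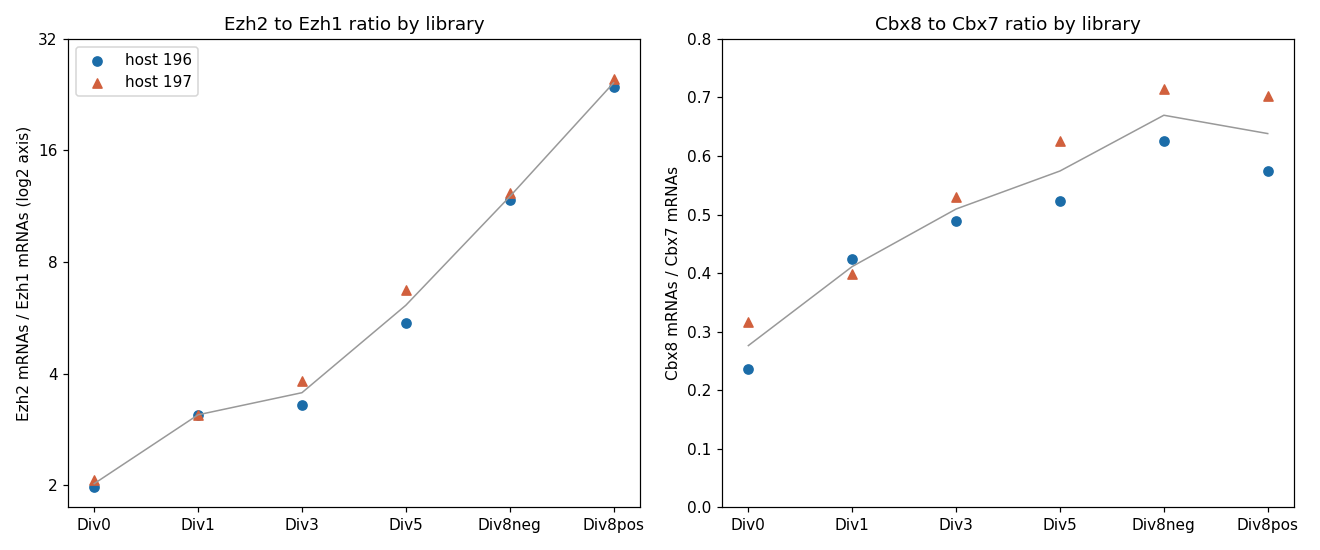
Ratio of Ezh2 to Ezh1 mRNAs per cell on a log2 axis (left) and of Cbx8 to Cbx7 mRNAs per cell on a linear axis from 0 (right) in each library, circles for host 196, triangles for host 197, line through group means. The first ratio goes from 1.98 and 2.06 in Div0 to 23.8 and 24.9 in Div8pos, and the second from 0.235 and 0.317 in Div0 to 0.625 and 0.715 in Div8neg.

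Between the chromodomain readers, Cbx8 mRNAs stood at 0.235 and 0.317 of Cbx7 mRNAs in Div0, 0.424 and 0.399 in Div1, 0.490 and 0.529 in Div3, 0.524 and 0.625 in Div5, 0.625 and 0.715 in Div8neg and 0.574 and 0.703 in Div8pos. Cbx7 was thus the more abundant of the pair in all 12 libraries. Div0 lay below Div1 and Div1 below Div3, while each later group overlapped the one before. Of the ligases, Rnf2 stood at 0.570 and 0.592 of Ring1 in Div0, 0.712 and 0.773 in Div8neg and 0.929 and 0.740 in Div8pos, where the hosts differed by more than the means of Div8neg and Div8pos did. Bmi1 mRNAs outnumbered those of its paralog Pcgf2 54.8- and 46.9-fold in Div0 and 16.2- and 11.6-fold in Div8pos, on 10 and 11 Pcgf2 counts in Div0.

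The members' shares were set beside those of 25 genes of DNA replication and mitosis, a list that includes Mki67, Top2a and the Mcm genes. Their summed CPM was 3227 and 3400 in Div0, 4309 and 4878 in Div1, 4577 and 5111 in Div3, 6416 and 6660 in Div5, 9003 and 8960 in Div8neg and 11450 and 10730 in Div8pos. In Div8neg against Div0 all 25 were higher (edgeR), where 71.0% of all genes were called and the list's median log2 change of 1.53 stood against -0.01 over all genes, with Ccnb1, the mitotic cyclin, 4.81-fold up, Ccnb2 4.38-fold, and the mitotic kinases Plk1 4.42-fold and Aurka 4.05-fold. In Div8pos against Div8neg, 15 were higher and 2 lower, a share near the 72.0% of all genes called there. Rrm2 (2.15-fold) and Cdk1 (1.80-fold) were among those higher, with Cdc6 (1.80-fold) and Mki67 (1.66-fold), and E2f2 (1.33-fold) and Cenpe (1.14-fold) were the lower ones. Over the 12 libraries, log2 CPM of Ezh2 correlated with this sum at r = 0.996, Eed at 0.942 and Suz12 at 0.94. All other members had a negative r: Ezh1 -0.949, Ring1 -0.92, Cbx7 -0.909, Jarid2 -0.906, Cbx8 -0.749, Rnf2 -0.736 and Bmi1 -0.154. The 12 libraries fall into 6 groups that differ in most genes and share 2 hosts, so these are descriptions. What part the mix of cycling cells has in the members' values was not tested.

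The genes whose log2 CPM ran most like a member's over the 12 libraries differed between members. For Ezh2 they were Ect2, Tacc3, Racgap1 and Shcbp1 (Pearson r 0.998 to 0.995), for Suz12 Eif1ax, Ipo11, Topbp1 and Pkig (0.995 to 0.992), and for Eed Sept2, Naa15, Ipo11 and Pkig (0.993 each). Ipo11 and Pkig thus stood in the lists of both Suz12 and Eed. Ezh1 ran most like Itpkb, Tpra1, Mif4gd and Zc3h12a (0.998 to 0.996), Ring1 most like Map3k14, Tmem127, Gimap1 and Cd84 (0.997 to 0.996) and Jarid2 most like Dgkq, Arhgap9, Fcgrt and Ash1l (0.995 to 0.993). Cbx7 was closest to Cnksr3, Slc25a37, Zbtb10 and Gvin1 (0.989 to 0.985). Likeness was lower for Cbx8 (Hsf4, Rab10os, Ddx55 and Foxo4, 0.957 to 0.943), Rnf2 (Gpd2, Arhgef7, Pold1 and Sipa1l2, 0.945 to 0.933) and Bmi1 (Cenpb, Gclc, Zbtb14 and Kpna4, 0.931 to 0.845). Among the members themselves, Eed and Suz12 ran closest (r = 0.99), and Ezh1 ran opposite to Suz12 (r = -0.99).

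Other subunits of PRC2 were measured as well. Of 7 partners tested, 5 were higher and 1 lower in Div8neg than in Div0 (edgeR, with 71.0% of all genes called), and 3 were higher and 3 lower in Div8pos than in Div8neg (72.0% called). Their median log2 changes were 0.49 and -0.22, against -0.01 and 0.01 over all genes. Phf1, a Tudor-domain accessory subunit, was at 194.7 and 187.8 CPM in Div0, 25.5 and 22.2 in Div8neg and 12.2 and 10.3 in Div8pos, 8.01-fold lower in Div8neg than in Div0 (adjusted p = 1.56e-12). Its paralog Phf19 was at 63.4 and 66.7 CPM in Div0, 120.0 and 109.8 in Div8neg and 47.5 and 42.8 in Div8pos, 1.77-fold higher and then 2.54-fold lower (adjusted p = 2.25e-07 and 7.18e-10). The histone-binding subunit Rbbp7 was 1.89-fold higher in Div8neg than in Div0, E130012A19Rik 2.15-fold and Aebp2, another accessory subunit, 1.40-fold. In Div8pos against Div8neg, Phf1 was 2.12-fold lower and Aebp2 1.17-fold lower, while Rbbp7 (1.18-fold), Mtf2 (1.15-fold) and Rbbp4 (1.21-fold) were higher, the last uncertain because pseudogene copies of Rbbp4 can share its reads.

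Among 7 tested partners of canonical PRC1, 3 were higher and 3 lower in Div8neg than in Div0 (edgeR, with 71.0% of all genes called). In Div8pos 5 were lower than in Div8neg, which is near the 72.0% of genes called there. The median log2 changes were -0.13 and -0.40. The Polyhomeotic gene Phc1, which links PRC1 particles into larger assemblies, was at 50.7 and 51.2 CPM in Div0, 29.4 and 25.3 in Div8neg and 8.00 and 6.43 in Div8pos, and was 3.78-fold lower in Div8pos than in Div8neg (adjusted p = 4.04e-10). Phc2 was 2.81-fold lower there, Cbx6 1.71-fold and Scmh1 1.32-fold. In Div8neg against Div0, Pcgf2 was 3.55-fold, Cbx2 1.51-fold and Cbx6 1.38-fold higher, and Phc1 1.86-fold, Phc2 1.49-fold and Scmh1 1.42-fold lower. The Pcgf2 fold rests on few counts, 10 and 11 in Div0 and 39 and 43 in Div8neg.

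Variant PRC1 complexes use other subunits than the Cbx and Phc proteins. Of 12 such genes tested, 3 were higher and 3 lower in Div8neg than in Div0, and 4 were higher and 3 lower in Div8pos than in Div8neg (edgeR). Both counts are below the 71.0% and 72.0% of all genes called, and the median log2 changes were 0.10 and -0.05. In Div8neg against Div0, Yaf2 (1.52-fold), E2f6 (1.45-fold) and Kdm2b (1.21-fold) were higher, and Mga (1.84-fold), Rybp (1.32-fold) and Bcor (1.19-fold) lower. In Div8pos against Div8neg, Bcorl1 (1.85-fold), Pcgf3 (1.64-fold), L3mbtl2 (1.32-fold) and Pcgf6 (1.25-fold) were higher, and Kdm2b (1.46-fold), Pcgf1 (1.36-fold) and Mga (1.21-fold) lower. Yaf2 and Rybp, which are paralogs, thus differed in opposite directions between Div8neg and Div0.

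The enzymes that remove the Polycomb marks, and the Asxl cofactors of one of them, were measured too. Of these 6 tested genes, 1 was higher and 3 lower in Div8neg than in Div0 (edgeR, with 71.0% of all genes called), and 4 were higher and 1 lower in Div8pos than in Div8neg (72.0% called). The median log2 changes were -0.11 and 0.40. Kdm6b, an H3K27 demethylase, was at 101.5 and 108.6 CPM in Div0, 48.6 and 51.2 in Div8neg and 34.6 and 33.2 in Div8pos, 2.11-fold and then 1.47-fold lower (adjusted p = 1.77e-09 and 9.83e-06). Usp16, a deubiquitinase of histone H2A, was at 87.8 and 91.2 CPM in Div8neg and 179.6 and 184.4 in Div8pos (2.03-fold, adjusted p = 9.53e-10). Kdm6a, the other H3K27 demethylase, was 1.16-fold lower in Div8neg than in Div0 and 1.39-fold higher in Div8pos than in Div8neg. Asxl1 was 1.15-fold higher and Asxl2 1.24-fold lower in Div8neg than in Div0. The H2A deubiquitinase Bap1 and its partner Asxl1 were 1.26-fold and 1.43-fold higher in Div8pos than in Div8neg.

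Textbook Polycomb targets were mostly at low counts. Of 45 listed, 39 are Hox genes, of which 16 had no counts in any library and 37 had at most 7 counts in each; the other 2, Hoxb3 and Hoxb4, were tested. Over the 7 targets tested, 4 were higher and 2 lower in Div8neg than in Div0, and 2 were higher and 2 lower in Div8pos than in Div8neg (edgeR), with 71.0% and 72.0% of all genes called. A listed gene that passed the filter through the groups where it is high had to differ, so these counts support nothing about the list. The cell cycle inhibitor gene Cdkn2a had 6 and 13 counts in Div0, 21 and 30 in Div5, 293 and 216 in Div8neg and 196 and 152 in Div8pos. It passed the filter through Div5 and the later groups, so a difference from Div0 was assured and no fold is given. Counts per gene do not separate its 2 products. Its neighbour Cdkn2b had 3 counts over both Div0 libraries and 99 over both Div8neg libraries and passed the filter only through Div8neg and Div8pos, so no fold against Div0 is given. It was 1.78-fold lower in Div8pos than in Div8neg (adjusted p = 0.0224). Cdkn1a was 3.77-fold higher in Div8neg than in Div0. Prdm1, the master regulator of plasma cells, was 9.17-fold higher in Div8neg than in Div0 and 5.57-fold higher in Div8pos than in Div8neg, and Irf4 was 4.96-fold higher in that second comparison. Hoxb4 was 1.71-fold lower in Div8neg than in Div0 and 2.75-fold lower in Div8pos than in Div8neg. Hoxb3 had 39 and 26 counts in Div0 and 9 and 3 in Div8neg, and no fold is given at counts this low. No chromatin mark was measured in these files.

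**Figure D5:**
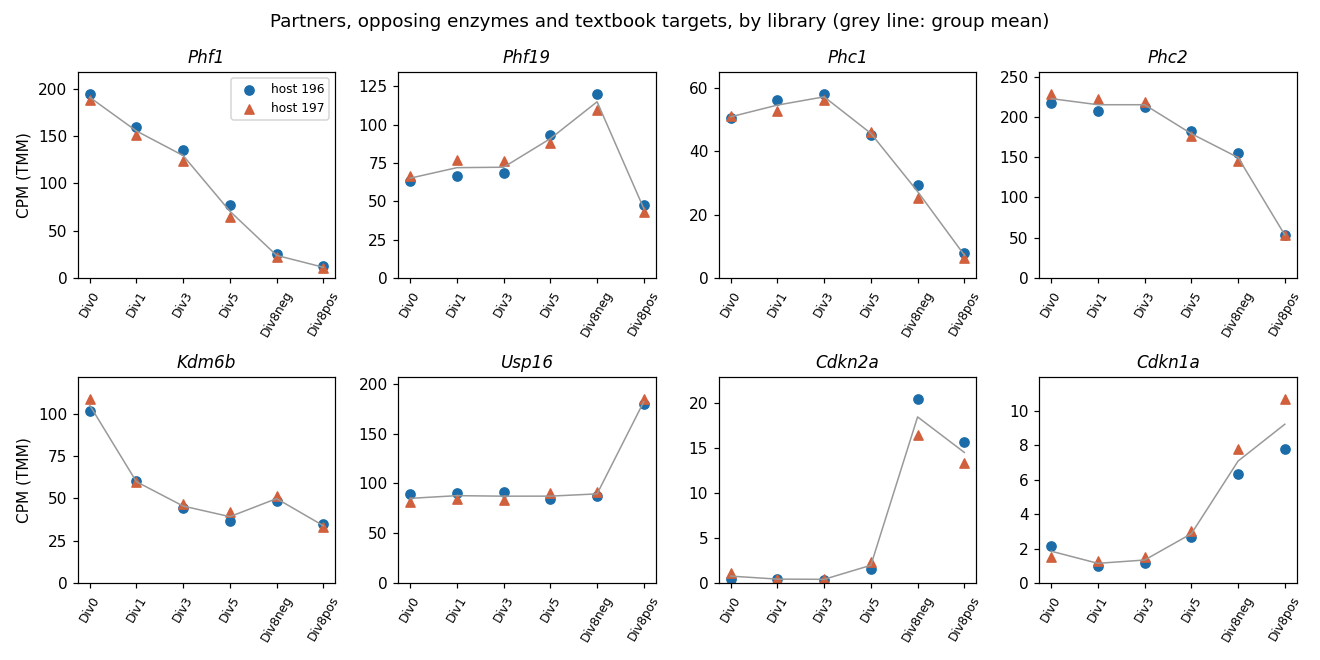
CPM of 8 genes named in the text in the 12 libraries, circles for host 196, triangles for host 197, grey line through group means; axes are linear from 0 and differ between panels. Phf1 and Phc1 end lowest in Div8pos, Usp16 ends highest there, and Cdkn2a is highest in Div8neg at 20.4 and 16.5.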

How the data were processed

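RNA-seq of 12 libraries was used: 6 groups of transferred B cells from 2 hosts. Exon read counts per gene and FPKM were deposited by the authors, with mRNAs per cell, a unit of their own. In every library the deposited mRNAs per cell equalled FPKM times 1 factor, which was the ratio of spike-in molecules to spike-in FPKM. Libraries were stranded and read as 50 bp pairs, per the labels' protocols. Picard, R 3.2.2 and the mm9 build stand in the submitters' processing notes, and for aligner and counter nothing is given in the sources used here. The 90 genes without a symbol (0.05% to 0.094% of counts) were left out of library sizes and tests. Bisulfite data were not analysed here.

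Counts were tested with edgeR 4.0.16 (filterByExpr, TMM, quasi-likelihood F test) and log2(mRNAs per cell + 0.1) with limma 3.58.1, in R 4.3.3, each fitted over all 6 groups and all 12026 filtered genes, without the host as a term, and adjusted by Benjamini-Hochberg at 0.05. Both procedures were run on simulated counts without host differences or error in the spike-in scaling, so that run could not test either of these. The same 2 animals supplied every group, so host numbers pair the libraries. Host differences correlated over genes between groups at 0.02 to 0.3 (median 0.15, 9 of 15 pairs over 0.1). The host block, other normalisations, DESeq2 1.42.0, filters, pseudocounts and each library left out in turn were run as alternatives. The members and lists were chosen with earlier results of these data known. All 10 members are named, from each list up to 4 called genes with the largest fold in each direction in Div8neg against Div0 and Div8pos against Div8neg, and for each member the 4 genes with the highest Pearson r of log2 CPM. Promoters came from RefSeq (GRCm38.p6) by symbol, and all 10 members matched. The tables' mm9 coordinates were not used. One item of a list is not reported here.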

Additional observations from a re-analysis of the deposited data

How the results depend on the processing

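No member's change reversed direction among called values under any alternative run. Of the counts of members called, these moved by more than 1.5 times. By counts, Div3 against Div1 had 1 member called and 0 when only the 2 groups compared were fitted (0 to 1 over libraries left out in turn). Div5 against Div3 had 5 (3 to 6 over libraries left out). Per cell, Div1 against Div0 had 7 (1 to 9), Div5 against Div3 had 4 and 0 with no filter on low values (0 to 5), and Div8neg against Div5 had 5 (1 to 5). The cause was not tested. With the host as a replicate block, which pairs the libraries of one animal, members called by counts were 4 in Div1 against Div0 and 6 in Div5 against Div3, from Rnf2 (adjusted p = 0.0437) and Cbx8 (adjusted p = 0.0359), and no other member's call changed. Over all genes, the block raised the number called by counts from 1124 to 1713 for Div1 over Div0 and from 411 to 755 for Div3 over Div1, and from 62 to 117 per cell in Div3 against Div1. Left-out libraries and filters moved the number of genes called per cell from 9277 to as few as 869 for Div1 over Div0, from 62 to 0 for Div3 over Div1, from 5190 to 228 in Div5 against Div3 and from 5509 to 2409 in Div8neg against Div5. By counts the lowest were 623 for Div1 over Div0, 138 for Div3 over Div1 and 1197 in Div5 against Div3. DESeq2 did not call Bmi1 in Div1 against Div0 (adjusted p = 0.0983), Div8neg against Div5 (0.181) or Div8pos against Div0 (0.052), Rnf2 in Div8neg against Div0 (0.0809), or Cbx8 in Div8pos against Div8neg (0.0679) or Div0 (0.0922). Leaving out 1 library leaves its group with 1, which is then assumed to vary like the others. Cbx8, at 96 to 184 counts, is the member most limited by depth.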
